A study of Mus musculus with 2 samples.

Results

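The endothelial cells of perigonadal white adipose tissue (gWAT), the cells that line its blood vessels, were taken from 2 single-cell RNA-seq libraries of sorted eYFP+ cells. They came from male Cyp1a1Cre x R26LSL-eYFP mice, in which Cre made from the Cyp1a1 promoter switches on eYFP permanently. A sorted cell, or a cell from which it descends, had thus used the Cyp1a1 promoter at collection or before. Both groups carried this reporter and were injected with FICZ, a ligand of the aryl hydrocarbon receptor (AHR), at 10 mg/kg and 5 days before the fat was taken. They differed in 12 weeks of low-fat diet (LFD, 10% fat) or high-fat diet (HFD, 60% fat). The labels do not give the age of the mice, the study pooled a pair of mice for each diet, and each diet had 1 library, so all values compare one library with the other, no test was possible, and intervals (95%) cover counting error only.

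Members were chosen by measured values, namely a UMI (1 counted transcript molecule) of at least 4 of 10 endothelial marker genes (Pecam1, Cdh5, Cldn5, Egfl7, Emcn, Gpihbp1, Plvap, Flt1, Kdr and Esam), no UMI of the leukocyte gene Ptprc, at most 1 of 6 mural genes and at most 2 of 5 stromal or mesothelial genes. The rule gave 646 of 10216 cells (6.32%, exact interval 5.86 to 6.81%) in LFD and 568 of 8537 cells (6.65%, 6.13 to 7.20%) in HFD, 1214 of 18753 cells in all. These are shares of sorted cells and not of the tissue. With a mitochondrial limit of 5% in place of 12.5%, the order of the shares turned, to 11.4% in LFD and 9.55% in HFD. All 10 markers were detected in 224 LFD and 136 HFD members. Just inside the threshold, 19 LFD and 15 HFD cells had exactly 4 markers; just outside it, 12 and 9 cells that met the other limits had 3. The limits on other cell types left out 84 LFD and 79 HFD cells for Ptprc, 32 and 112 for mural genes, and 67 and 28 for stromal genes. The libraries shared 27 barcodes, of which 0 belonged to members in both.

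Capillary endothelium of fat takes up fatty acids from the blood. GPIHBP1 holds lipoprotein lipase on the vessel wall, CD36 and caveolae carry fatty acids into the cell, and FABP4 binds them there. Arterial cells are known for Notch ligands and SOX factors, venous cells for P-selectin and ACKR1, and growing vessels for tip cells that express Esm1, Apln and Angpt2 and for dividing cells behind them. AHR pairs with ARNT on DNA and switches on Cyp1a1, Cyp1b1, Tiparp and its own repressor Ahrr.

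Cyp1a1 and Cyp1b1, both direct AHR targets, were distributed in opposite ways between endothelial and stromal cells in these libraries, so the 250 bases before their start sites are shown to set their sequences side by side. They were read 5′ to 3′ on each gene's strand from RefSeq (GRCm38.p6), Cyp1a1 from chr9:57697363-57697612 on the + strand and Cyp1b1 from chr17:79715062-79715311 on the - strand. In GENCODE M21 the Cyp1a1 stretch is upstream of the shorter transcript and intronic in a longer one, and the Cyp1b1 stretch is intergenic. Capitals mark GCGTG, the core to which AHR and ARNT bind, or its reverse complement.
Cyp1a1: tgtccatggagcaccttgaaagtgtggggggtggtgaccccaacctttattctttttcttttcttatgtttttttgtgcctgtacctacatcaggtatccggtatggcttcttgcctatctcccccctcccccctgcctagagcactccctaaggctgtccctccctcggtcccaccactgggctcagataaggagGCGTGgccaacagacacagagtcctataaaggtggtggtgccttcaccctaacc
Cyp1b1: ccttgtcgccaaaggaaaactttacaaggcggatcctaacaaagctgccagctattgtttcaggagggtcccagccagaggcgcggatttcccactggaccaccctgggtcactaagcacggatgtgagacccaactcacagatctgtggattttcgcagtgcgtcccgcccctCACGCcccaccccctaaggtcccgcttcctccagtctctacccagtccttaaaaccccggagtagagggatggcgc
Each stretch held the core 1 time, as did, at least 1 time on either strand, 28.2% of the 32851 stretches of this length in the RefSeq table, so the match is a description and marks no binding site.

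The members expressed the genes by which fat capillaries are known. Fabp4 (chr3:10204342-10208616, GRCm38.p6) stood at 23717 CPM (23560 to 23874) under LFD and 36048 CPM (35806 to 36291) under HFD, where CPM is the summed UMIs of a gene in every 1000000 UMIs of these cells, against 412 and 562 CPM in stromal cells of the same libraries. Stromal cells here are the 5586 LFD and 3661 HFD cells with at least 2 of the stromal genes and no Ptprc, and immune cells the 1885 and 2591 cells with Ptprc, both with at most 1 endothelial marker. Cd36 (chr5:17781690-17888959), the fatty acid carrier, had 1615 CPM under LFD and 3472 CPM under HFD, against 2.02 and 3.35 CPM in stromal and 65.6 and 99.0 CPM in immune cells. Cd300lg, a capillary surface glycoprotein, had 658 CPM under LFD and 1047 CPM under HFD and was under 2 CPM in both other populations. Lpl, the lipase itself, was also found in stromal cells, with 199 CPM under LFD and 369 CPM under HFD in members and 113 and 128 CPM in stromal cells. Since the members were chosen from the same cells, these contrasts are descriptions.

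**Figure D1:**
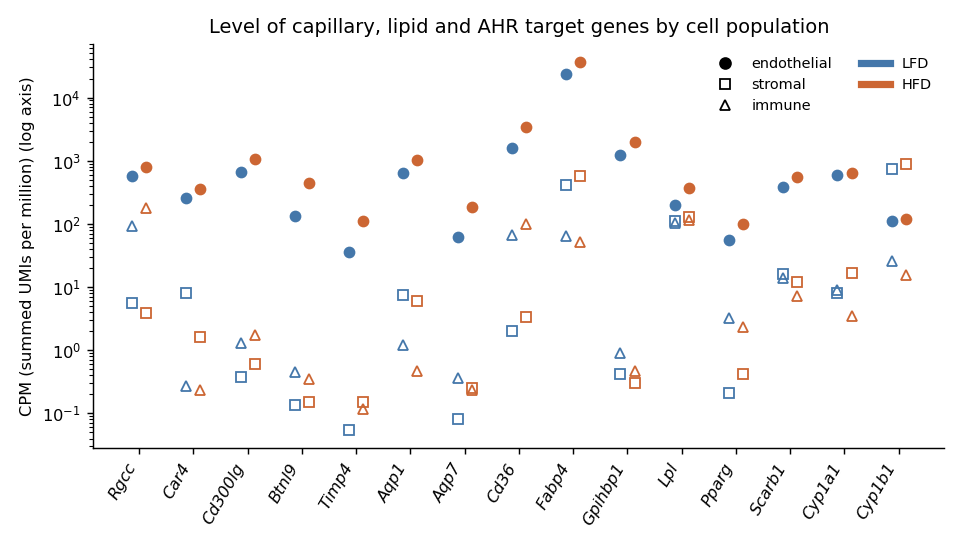
Level in CPM (log axis) of capillary, lipid handling and AHR target genes in endothelial (filled circles), stromal (squares) and immune cells (triangles) of the LFD (blue) and HFD (orange) library; a level of 0 (Timp4 in LFD immune cells) is not drawn. Endothelial levels lay above both other populations for each gene except Cyp1b1, which was highest in stromal cells.

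Leaving out the rule's markers, the 15 genes with the highest ratio of member level to all other kept cells, ranked over 2 libraries by the smaller ratio, were Esm1, Rbp7, Nts, Aplnr, Dach1, Tmem252, Robo4, Cdh13, C1qtnf9, Thrsp, Adgrl4, Fam167b, Grrp1, Prex2 and Eva1a. Their ratios were at least 102 in each library. The other kept cells still held the cells with at least 4 markers that the rule left out for Ptprc, mural or stromal genes. The ratios and their order are therefore not contrasts with other cell types alone. Rbp7, a retinol-binding protein of fat endothelium, stood at 706 CPM under LFD and 841 CPM under HFD, and its ratio to the other kept cells was 149.5 and 151. In those cells Rbp7 had 4.72 and 5.57 CPM, but 0.454 and 0.415 CPM in stromal and 1.19 and 0.471 CPM in immune cells. Robo4, an endothelial guidance receptor, was nearly level between diets at 229.6 CPM under LFD and 231 CPM under HFD. Aplnr, the apelin receptor, had 343 CPM under LFD and 284 CPM under HFD. Cdh13, a receptor for adiponectin, had 194 CPM under LFD and 386 CPM under HFD, and C1qtnf9, an adiponectin-like secreted protein, 167 CPM under LFD and 292 CPM under HFD. The neuropeptide gene Nts was held by few cells: 5 cells gave 56.8% of its LFD UMIs and 96.0% of its HFD UMIs.

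The word capillary was checked against arterial, venous and lymphatic genes. Of the lymphatic genes, Prox1, Mmrn1, Reln and Ccl21a had 0 UMIs in LFD. In HFD 1 cell of 12265 UMIs held all 75 Ccl21a UMIs, all 12 Mmrn1 UMIs and 43 of the 44 Lyve1 UMIs, and it was the only member with at least 2 of the genes Prox1, Flt4, Mmrn1, Reln and Ccl21a. The count of 0 of 646 LFD members allows a share of such cells of up to 0.464% if 3 counts are taken as the limit, and the exact interval reaches 0.569%. The large-artery genes Gja5 and Bmx had 1 and 6 UMIs in LFD and 2 and 8 in HFD. To compare shares at 1 depth, each cell was thinned to 1000 UMIs, which left out 28 LFD and 26 HFD members. At least 2 arterial genes were then detected in 11.2% (8.79 to 13.9%) of LFD and 21.2% (17.9 to 24.9%) of HFD members, and at least 2 of Ackr1, Selp, Vwf and Lrg1 in 7.61% (5.64 to 9.98%) and 3.69% (2.27 to 5.64%). Without thinning the arterial shares were 44.9% and 56.7% and the venous shares 22.3% and 11.1%. The members were thus blood vessel cells with capillary genes, among them a minority with at least 2 of Ackr1, Selp, Vwf and Lrg1. Aplnr, on the venous list but not in that gate, was detected in 56.8% of LFD and 43.5% of HFD members without thinning. Dll4, Efnb2, Unc5b and other genes of the arterial gate are also used by capillary cells, so the gate marks cells with arterial genes and not arteries.

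**Figure D2:**
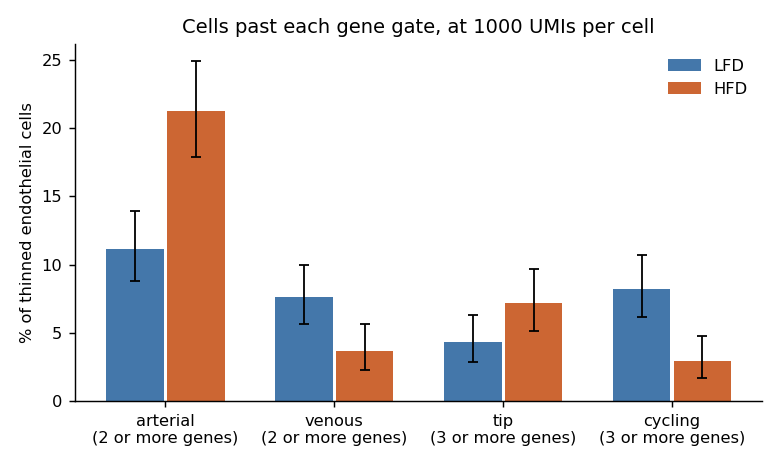
Share of endothelial cells, each thinned to 1000 UMIs, that had at least the given number of genes of the arterial, venous, tip cell and cell cycle lists in the LFD (blue) and HFD (orange) library; error bars are exact binomial intervals. Arterial and tip gates were passed by a larger share of HFD cells and venous and cycling gates by a larger share of LFD cells.

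For the diet comparison, the HFD to LFD ratio of CPM was taken for the 8959 genes with at least 50 UMIs over both libraries and a UMI in each. Of these, 327 (3.65%) were at least 2-fold higher in HFD and 188 (2.10%) at least 2-fold lower, and the median ratio of all of them was 1.09, a log2 ratio of 0.12, with 5366 genes above 1 and 3593 below. Median-of-ratios scaling, which sets the typical gene near no change, moved that median to -0.03 and the counts to 191 higher and 291 lower. Against this background, 4 of 11 capillary genes and 3 of the 8 arterial genes compared passed 2-fold higher, 2 of 7 venous genes passed 2-fold lower (neither of them without the 5% of cells with most UMIs), and 6 of 12 cell cycle genes passed 2-fold lower. The capillary count was 3 with median-of-ratios scaling and 2 as a mean of per-cell CPM, and the cell cycle count 10 and 9. A gene had to reach the minimum in the sum of both libraries, and list members below it are named or counted where the list is described. The libraries also differed in depth: members had a median of 4002 UMIs in LFD and 2968 in HFD, although all kept cells went the other way, with medians of 10636 and 13231. Many endothelial genes varied with UMIs per cell, so for the genes the results turn on, ratios among cells of like depth are given beside the totals.

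All 11 capillary genes had a higher level in HFD, with a median ratio of 1.62. Btnl9 (chr11:49168325-49187089), a butyrophilin-like capillary marker, had 134 CPM (123 to 147) under LFD and 444 CPM (417 to 472) under HFD, with a ratio of 3.30 (2.96 to 3.68). Timp4, a metalloproteinase inhibitor, had 35.4 CPM under LFD and 111 CPM under HFD, with a ratio of 3.14 (2.54 to 3.90). Aqp7 (chr4:41033074-41048237), the glycerol channel, had 62.1 CPM under LFD and 183 CPM under HFD, with a ratio of 2.94 (2.50 to 3.47). Cd36 had a ratio of 2.15 (2.08 to 2.22). As a mean of per-cell CPM, Timp4 was at 1.69 and Cd36 at 1.87, and with median-of-ratios scaling Cd36 was at 1.94, all under 2-fold. The water channel Aqp1 (1.62), the homeobox factor Meox2 (1.85), Cd300lg (1.59), Fabp4 (1.52), Rgcc (1.42), Car4, a carbonic anhydrase of the capillary wall (1.36), and Tcf15, a transcription factor of fatty acid uptake (1.32), were higher by less than 2-fold. Among cells with 1500 to 3000 UMIs (150 LFD, 215 HFD) the ratio was 1.81 for Btnl9, 2.10 for Aqp7, 1.60 for Cd36 and 1.22 for Fabp4, and among cells with 3000 to 6000 UMIs (158 LFD, 180 HFD) it was 3.32, 2.34, 1.95 and 1.38. The median over the list was a log2 ratio of 0.70 in all cells and 0.10 in the cells with 1500 to 3000 UMIs, and 0.42 in cells with at most 1 cell cycle gene. The ratio of Timp4 was 1.07 (0.773 to 1.49) in cells with 1500 to 3000 UMIs, which holds 1, and 4.38 (2.82 to 7.03) in cells with 3000 to 6000 UMIs.

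Of 20 lipid handling genes, which include the rule marker Gpihbp1, 17 had enough UMIs to compare, 15 of them above 1, with a median ratio of 1.40. Over all compared genes 5366 of 8959 were above 1. Cd36 alone passed 2-fold, a share of the list near the background, and it lost that call in the settings named above. Gpihbp1 (chr15:75596630-75598213), a rule marker, had 1221 CPM (1185 to 1257) under LFD and 1999 CPM (1942 to 2057) under HFD, with a ratio of 1.64 (1.57 to 1.71). In cells with 1500 to 3000 UMIs the ratio of Gpihbp1 was 1.07 (0.972 to 1.17), and in cells with 3000 to 6000 UMIs 1.68 (1.55 to 1.81). Lpl had a ratio of 1.85 (1.67 to 2.04), but in cells with 1500 to 3000 UMIs its ratio was 0.81. Pparg, the nuclear receptor that switches on Fabp4 and Cd36, had 55.9 CPM under LFD and 98.0 CPM under HFD, with a ratio of 1.75 (1.45 to 2.12). The caveolar genes Cavin1, Cavin2 and Cav1 had ratios of 1.51, 1.36 and 1.19. Scarb1, the HDL receptor, had a ratio of 1.40, Plin2, a lipid droplet coat protein, 1.40, the lipases Pnpla2 and Lipe 1.53 and 1.31, and the acyl-CoA synthetase Acsl1 1.57. Fabp5 and the lipase inhibitor Angptl4 were close to level, at 1.04 (1.00 to 1.09) and 1.09 (0.997 to 1.19). The fatty acid transporter Slc27a3 (0.544, 0.334 to 0.861) was among the 2 compared genes below 1. Slc27a1, Slc27a4 and Vldlr had under 50 UMIs in all.

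Arterial and Notch genes had higher levels in HFD, with 8 of 10 arterial genes compared and all 8 above 1 (median 1.80). Dll4 (chr2:119325784-119335666), the Notch ligand of arterial and tip cells, had 123 UMIs in 103 LFD cells and 277 in 183 HFD cells, 33.2 CPM under LFD and 118 CPM under HFD, with a ratio of 3.54 (2.85 to 4.41). Its ratio was 2.69, 4.06 and 2.44 in cells with 1500 to 3000, 3000 to 6000 and 6000 to 12000 UMIs. Efnb2, the arterial ephrin, had a ratio of 3.04 (2.58 to 3.58), with 3.33, 2.64 and 2.49 in the same ranges, and Sema3g, an arterial semaphorin, 2.97 (2.39 to 3.71). The ratio of Sema3g was 1.23 (0.809 to 1.91) in cells with 1500 to 3000 UMIs, an interval that holds 1, and 2.35 (1.64 to 3.43) in cells with 3000 to 6000 UMIs. Jag1, Unc5b, Hey1, Gja4 and Sox17 had ratios of 1.99, 1.64, 1.41, 1.30 and 1.27. All 10 Notch genes were above 1 (median 1.57), Dll4 alone past 2-fold, among them the targets Hes1 at 1.89 (1.66 to 2.15) and Nrarp at 1.67 (1.45 to 1.92) and the receptor Notch1 at 1.48 (1.30 to 1.68), with Notch4 the lowest at 1.20 (1.01 to 1.41). For comparison, 5366 of the 8959 compared genes were above 1 and 3.65% passed 2-fold higher, and the 10 rule markers had a median of 1.32.

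Among all compared genes 5366 of 8959 were above 1 and 3.65% passed 2-fold higher. The 10 rule markers had a median ratio of 1.32. Of 16 endothelial transcription factors 15 were above 1, with a median ratio of 1.31, near that of the rule markers. Of these factors 1 gene passed 2-fold, near the share over all genes. That gene was Sox18 (chr2:181669837-181671640), a SOX factor of developing and lymphatic vessels, with 81.6 CPM (72.6 to 91.3) under LFD and 286 CPM (264 to 308) under HFD, with a ratio of 3.50 (3.05 to 4.02). It was detected in 206 LFD and 293 HFD cells, no 5 cells held more than 7.88% of its UMIs, and its ratio was 2.32, 3.16 and 3.84 in the 3 depth ranges. In thinned cells its share was 8.08% in LFD and 23.1% in HFD. The related Sox17 and Sox7 had ratios of 1.27 and 1.47. Meox1 was the single factor below 1, at 0.791 (0.663 to 0.942), while its paralogue Meox2 was at 1.85 (1.64 to 2.08).

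Of 7 venous genes 5 had lower levels in HFD (median 0.828), against an all-gene median above 1. Selp (chr1:164115264-164150026), P-selectin, had 368 UMIs in 60 LFD cells and 100 in 25 HFD cells, 99.4 CPM under LFD and 42.4 CPM under HFD, with a ratio of 0.427 (0.339 to 0.534). That ratio was 0.684 (0.292 to 1.60), 0.247 (0.163 to 0.365) and 0.776 (0.533 to 1.11) in cells with 1500 to 3000, 3000 to 6000 and 6000 to 12000 UMIs, of which the first and the last hold 1. Ackr1, the chemokine decoy receptor of venules, had 96 UMIs in 22 LFD cells and 28 in 10 HFD cells, with a ratio of 0.458 (0.289 to 0.704). The ratio of Ackr1 was 0.23 (0.102 to 0.468) in cells with 3000 to 6000 UMIs but 2.25 (1.08 to 4.70) in cells with 6000 to 12000 UMIs, on the other side of 1. In cells with over 12000 UMIs Ackr1 had 35 UMIs in LFD and 0 in HFD, where the interval of the ratio reached 0.294, and Selp was at 0.194 (0.0819 to 0.397). Without the 5% of cells with most UMIs, Selp was at 0.532 and Ackr1 at 0.743, and neither passed 2-fold. Lrg1 was at 0.621 (0.559 to 0.69), with 0.563, 0.401 and 0.807 in the 3 ranges. Aplnr was at 0.828 (0.753 to 0.91), with 0.684, 0.804 and 0.954. Vwf, von Willebrand factor, was at 0.896 (0.763 to 1.05), an interval that holds 1, and its ratio was 1.19, 0.479 and 1.19 in the 3 ranges, below 1 in the middle range alone. Ephb4 and Nr2f2 were above 1, at 1.27 and 1.14, though in cells with 1500 to 3000 UMIs Ephb4 was at 0.911 (0.58 to 1.45) and in cells with 3000 to 6000 UMIs Nr2f2 was at 0.616 (0.433 to 0.872). Of the fenestral diaphragm gene Plvap, a rule marker and venous in many tissues, the levels were 826 CPM under LFD and 561 CPM under HFD. Selp and Ackr1 each rested on few cells, and the 5 highest held 35.9% of Selp and 55.2% of Ackr1 UMIs in LFD, and 47.0% and 82.1% in HFD.

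Genes of leukocyte adhesion and chemokines were mixed. Of 12 genes, 10 were compared, with Selp and Cxcl10, an interferon-induced chemokine (0.445, 0.295 to 0.656), past 2-fold lower and Ccl2 (2.46, 2.07 to 2.93) past 2-fold higher. Ccl2 stood at 1055 and 1349 CPM in stromal cells, and its estimated free RNA in members was 23.8 of 58.9 CPM in LFD and 46.0 of 145 CPM in HFD. In members with no UMI of the mural and stromal rule genes, Cd79a, Lyz2, Jchain or Cd3e, Ccl2 was at 0.82, on the other side of 1, and Cxcl10 at 0.565, short of 2-fold. The free RNA estimate scales each gene's level in all cells of a library by the share that immunoglobulin genes reach in members (2.77% in LFD, 4.88% in HFD). Icam1 and Icam2, adhesion ligands of leukocyte integrins, were nearly level at 0.918 (0.813 to 1.03) and 1.02 (0.929 to 1.12). Sele, E-selectin, had only 33 LFD and 6 HFD UMIs. Cxcl9, another interferon-induced chemokine, had a ratio of 1.62 (1.40 to 1.88).

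Tip cell and growth factor genes lay on both sides of 1. Of 9 compared tip cell genes, Pgf, placental growth factor, had the highest ratio, 3.34 (2.65 to 4.23), with UMIs in 39 LFD and 68 HFD cells, and with a ratio of 1.75 in members with no UMI of those mural, stromal and immune genes, followed in the list by the chemokine receptor Cxcr4 at 2.55 (1.73 to 3.78). Esm1 (100.0 CPM under LFD and 56.9 CPM under HFD) had the lowest, 0.569 (0.463 to 0.695), and Apln, the apelin ligand, was at 0.747 (0.648 to 0.86). In cells with 3000 to 6000, 6000 to 12000 and over 12000 UMIs the ratio of Apln was 0.93 (0.681 to 1.27), 0.737 (0.569 to 0.946) and 0.998 (0.783 to 1.26), of which the first and the last hold 1. In the same ranges Esm1 was at 0.538 (0.311 to 0.912), 0.747 (0.537 to 1.02) and 0.824 (0.589 to 1.13), of which the last 2 hold 1, while Pgf was at 2.98, 3.03 and 4.22. Angpt2, which loosens vessels, was level at 0.958 (0.78 to 1.18), and Pdgfb, which recruits pericytes, was at 1.46 (1.31 to 1.63). At least 3 tip genes were detected in 4.37% (2.90 to 6.29%) of thinned LFD and 7.20% (5.17 to 9.71%) of thinned HFD cells, but in 32.4% and 30.5% without thinning, where the order turned. This gate was set after the values were seen. Of 9 compared VEGF and TIE genes, the ligand Vegfb was lowest (0.739, 0.435 to 1.22), on 51 and 24 UMIs, and the phosphatase Ptprb highest (1.81, 1.70 to 1.94). The receptor genes Flt1 and Kdr of this list are rule markers, so nothing is read from its count. In the BMP and TGF-beta list the ligand Bmp6 (2.68, 2.10 to 3.44) and the inhibitory Smad6 (2.24, 1.49 to 3.41) passed 2-fold higher (Smad6 was at 1.92 as a mean of per-cell CPM), and the lowest was Bmp4 (0.912, 0.587 to 1.40). Bmp6 was short of 2-fold among cells of like depth, at 1.79 in cells with 1500 to 3000 UMIs and 1.92 in cells with 3000 to 6000 UMIs. In the flow and vessel tone list the endothelin receptor Ednrb passed 2-fold higher (2.15, 1.91 to 2.43), but was at 1.94 with median-of-ratios scaling and 1.55 in cells with 1500 to 3000 UMIs. Procr, the protein C receptor, was lowest there (0.589, 0.469 to 0.735 in all members).

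Immediate early genes, which cells switch on within minutes of a stimulus, were higher in HFD for 15 of the 16 compared, with a median ratio of 1.55 and 5 past 2-fold. These were Egr3 (3.41, 2.73 to 4.28), Nr4a1 (2.52, 2.19 to 2.90), Egr2 (2.51, 1.74 to 3.65), Btg2 (2.08, 1.89 to 2.28) and Egr1 (2.06, 1.97 to 2.16). With median-of-ratios scaling 3 of them passed, Btg2 being at 1.87 and Egr1 at 1.86, and as a mean of per-cell CPM 2 did, Egr2 being at 1.37, Btg2 at 1.86 and Egr1 at 1.62. In cells with 1500 to 3000 UMIs 1 of 15 compared genes passed 2-fold, with Nr4a1 at 1.59 and Btg2 at 1.74. In cells with 3000 to 6000 UMIs 3 of 16 passed, and in cells with at most 1 cell cycle gene 2 of 16. Over all compared genes in all members, 5366 of 8959 were above 1 and 3.65% passed 2-fold higher. Egr1 had 833 CPM under LFD and 1716 CPM under HFD in members but 1232 and 1159 CPM in stromal cells, so the order of the libraries was not shared by those cells. Ier3 was the lowest at 0.943 (0.869 to 1.02). Egr1 also varied with depth within each library, from 2527 CPM under LFD and 2834 CPM under HFD in the tercile of members with fewest UMIs to 479.8 CPM under LFD and 1063 CPM under HFD in the tercile with most, and its ratio was 1.41 in cells with 1500 to 3000 UMIs.

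Cell cycle genes had lower levels in HFD. All 12 were below 1 (median 0.501), from the cyclin Ccna2 at 0.311 (0.215 to 0.44) and the survivin gene Birc5 at 0.323 (0.261 to 0.396) to Pcna at 0.831 (0.726 to 0.949). Mki67 had 85.6 CPM under LFD and 44.1 CPM under HFD and Top2a 121 CPM under LFD and 65.8 CPM under HFD. Among cells of like depth several of these differences were smaller. Most UMIs of the 12 genes lay in cells with 6000 to 12000 and with over 12000 UMIs, where their summed ratio was 0.603 (0.538 to 0.673) and 0.714 (0.648 to 0.787). There Top2a was at 0.747 (0.545 to 1.01) and 0.936 (0.711 to 1.22), intervals that both hold 1, and Mki67 at 0.841 (0.581 to 1.20) and 0.683 (0.472 to 0.968), of which the first holds 1. Birc5 was at 0.416 (0.283 to 0.596) and 0.477 (0.349 to 0.641), past 2-fold in both. Pcna was above 1 in cells with 1500 to 3000 and 3000 to 6000 UMIs, at 1.24 (0.783 to 1.98) and 1.33 (0.984 to 1.81), and both intervals hold 1. At least 3 of the 12 genes were detected in 8.25% (6.21 to 10.7%) of thinned LFD and 2.95% (1.70 to 4.75%) of thinned HFD members, and in 157 of 646 and 55 of 568 cells without thinning; the cycling gate was also set after the values were seen. Those 157 cells had a median of 10028 UMIs and held 45.5% of all member UMIs in LFD, and the 55 had a median of 8729 UMIs and held 22.6% in HFD. A sum over members thus weighted dividing cells more in LFD. In cells with at most 1 cell cycle gene, the HFD to LFD ratio was 1.77 for Cd36, 2.64 for Btnl9, 3.14 for Sox18, 4.03 for Dll4, 0.349 for Selp, 1.73 for Egr1 and 0.659 for Gapdh, each on the same side of 1 as in all members.

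Some glycolytic enzymes had lower levels in HFD, with Eno1 at 0.543 (0.461 to 0.637), Pgk1 at 0.545 (0.48 to 0.618), Gapdh at 0.601 (0.568 to 0.636), Ldha at 0.713 (0.653 to 0.777) and Aldoa at 0.862 (0.779 to 0.953). The glycolysis and hypoxia list as a whole had a median of 0.832 over 10 compared genes, 6 of them below 1 and 4 above. Of these genes 0 passed 2-fold lower and 1 passed 2-fold higher. Pfkfb3, a regulator of glycolysis in sprouting vessels, was at 2.46 (1.79 to 3.42) and the stress gene Ndrg1 at 1.38 (1.23 to 1.54). Gapdh had 1196 CPM under LFD and 719 CPM under HFD in members and 1081 and 914 CPM in stromal cells. Within the 3 ranges of depth the ratio of Gapdh was 0.708, 0.706 and 0.674, and that of Pgk1 0.446, 0.656 and 0.562. In cells with over 12000 UMIs Gapdh was at 0.676 (0.609 to 0.748) and Pgk1 at 0.826 (0.674 to 1.01), the latter an interval that holds 1.

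Many of these levels varied with UMIs per cell in both libraries. From the tercile of cells with fewest UMIs through the middle to the tercile with most, Fabp4 had 39367, 28556 and 19748 CPM in LFD and 46528, 45646 and 30295 CPM in HFD. Lpl had 819.6, 318 and 69.4 CPM in LFD and 682, 566 and 231 CPM in HFD. The order was the opposite for Gapdh, Apln and Top2a, where Apln had 50.3, 114 and 204 CPM in LFD and 26.9, 77.4 and 163 CPM in HFD. Sox18 had 76.9, 96.2 and 76.8 CPM in LFD, with no order, and in HFD 252, 287 and 292 CPM. Cells of few UMIs had more Fabp4 and Lpl in CPM and cells of many UMIs more Apln, Gapdh and Top2a. A CPM is a share of the counted RNA, so a higher CPM does not say that a cell held more of the transcript.

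**Figure D3:**
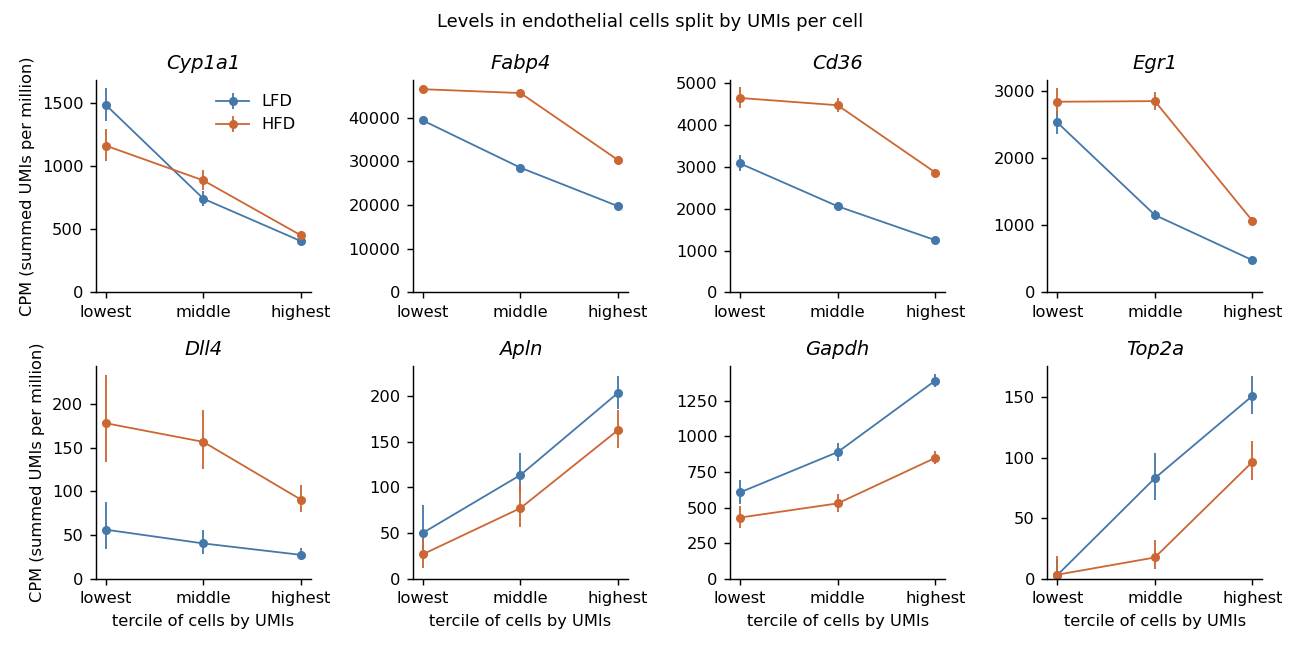
Level in CPM of 8 genes in endothelial cells split into terciles by UMIs per cell, for the LFD (blue) and HFD (orange) library; bars are exact counting intervals. Cyp1a1, Fabp4, Cd36, Egr1 and Dll4 were lowest in the tercile with most UMIs and Apln, Gapdh and Top2a highest there; Dll4 and Cd36 lay higher in HFD in each tercile.

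Cyp1a1 (chr9:57687928-57703824), whose promoter marked the sorted cells, was close to level between diets in the sum over members and lower in HFD in most ranges of depth. It had 2176 UMIs in LFD and 1524 in HFD members, 588 CPM (563 to 613) under LFD and 646 CPM (614 to 679.8) under HFD, with a ratio of 1.10 (1.03 to 1.18), and the side of 1 on which this fell was not kept: with median-of-ratios scaling it was 0.992, as a mean over cells 0.933, and in cells with at most 1 cell cycle gene 0.96. From the shallowest to the deepest of 5 ranges of depth, bounded at 1500, 3000, 6000 and 12000 UMIs, the ratio of Cyp1a1 was 0.641 (0.492 to 0.83), 0.793 (0.695 to 0.905), 1.07 (0.948 to 1.21), 0.892 (0.771 to 1.03) and 0.792 (0.641 to 0.974), below 1 in each but the middle range. A UMI was found in 73.2% of LFD and 62.7% of HFD members, or 45.4% and 43.1% after thinning. In stromal cells of median 12400 and 16332 UMIs the thinned share was 0.734% and 1.35%. The free RNA estimate for Cyp1a1 in members was 0.893 CPM in LFD and 1.51 CPM in HFD. Levels per cell were uneven: at least the lowest 25% of cells had none, the median was 549 CPM in LFD and 424 CPM in HFD, and the 90th percentile was 2313 and 2382 CPM.

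Cyp1a1 was lower in CPM in dividing and in deep cells of both libraries. Cells that passed the cycling gate had 362 CPM (334 to 392) under LFD and 293 CPM (248 to 342) under HFD, and the others 776 CPM (738 to 816) and 750 CPM (711 to 791). By tercile of depth the level was 1485, 742 and 406 CPM in LFD and 1162, 887 and 452 CPM in HFD. The cycling gate is passed more easily by deep cells, so they were also compared within ranges of depth. In cells with 3000 to 6000 UMIs, Cyp1a1 had 393 CPM (293 to 515) in 27 cycling and 769.6 CPM (698 to 846) in 131 other LFD cells, and 392 CPM (266 to 556) in 17 cycling and 789.7 CPM (724 to 860) in 163 other HFD cells. In cells with 6000 to 12000 UMIs it had 410.1 CPM (361 to 464) and 571 CPM (517 to 628) in LFD and 308 CPM (230.3 to 402) and 497 CPM (433 to 569) in HFD, in the same order. In cells with over 12000 UMIs the intervals overlapped, with 321 CPM (285 to 359.8) and 346 CPM (284 to 418) in LFD and 258 CPM (202 to 325) and 261 CPM (193 to 346) in HFD. Arterial-gated cells without venous genes had 547 and 640.4 CPM, venous-gated cells without arterial genes 564 and 552 CPM, cells that passed both gates 483 and 543 CPM, and cells that passed neither 724 and 745 CPM; the last group was also the shallowest, with a median of 2201 and 2071 UMIs.

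**Figure D4:**
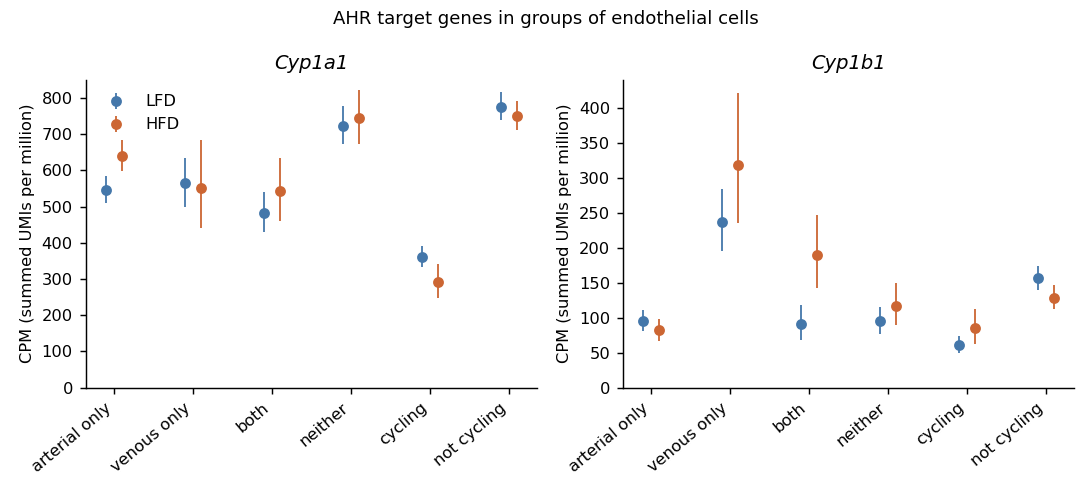
Level in CPM of Cyp1a1 (left) and Cyp1b1 (right) in endothelial cells grouped by the arterial, venous and cycling gates, for LFD (blue) and HFD (orange); bars are exact counting intervals. Cyp1a1 was lowest in cycling cells of both libraries, and Cyp1b1 was highest in cells with venous genes only.

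The other AHR targets had a different pattern. Cyp1b1 (chr17:79706940-79715061) had 113 CPM (102 to 124) under LFD and 118 CPM (105 to 133) under HFD in members, with a ratio of 1.05 (0.897 to 1.22), against 739 and 893 CPM in stromal cells, while Cyp1a1 had 7.94 and 17.0 CPM there. Within members, Cyp1b1 was highest in venous-gated cells, with 236 CPM (196 to 283) under LFD and 318 CPM (236 to 421) under HFD, against 94.7 and 81.5 CPM in arterial-gated cells. Nqo1, a quinone reductase under AHR and NRF2, followed it, with 142 and 117 CPM in venous-gated and 20.3 and 35.7 CPM in arterial-gated cells. Tiparp, a poly-ADP-ribose polymerase that restrains AHR, had 206 and 117 CPM in venous-gated and 61.0 and 83.7 CPM in arterial-gated cells. In these comparisons cells that passed both gates are left out. Before that step 144 LFD and 63 HFD members passed the venous gate, so the venous levels rest on few cells, above all in HFD. Between diets 0 of the 8 compared AHR pathway genes passed 2-fold. Over all compared genes 3.65% passed 2-fold higher and 2.10% lower, so this count is near the background and nothing is read from it. The ratios were, for Tiparp, 0.919 (0.777 to 1.09), for Ahrr 0.947 (0.626 to 1.42), for Nqo1 0.974 (0.766 to 1.24), for the receptor Ahr 1.33 (0.952 to 1.87), and for its partner Arnt 1.54 (1.17 to 2.04). Cyp1a2 had 1 UMI in each library and Aldh3a1 had 0, which allows up to 3 UMIs.

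Over all genes, the 15 highest in HFD by the lower bound of their ratio (with UMIs in at least 20 cells of the library with more, and a free RNA estimate under 1/3 of the level) were Dpt, Medag, Mfap5, Lum, Npr3, Gsn, Fbn1, Glcci1, Sox18, Btnl9, Abca8b, Sned1, Cyp4b1, Il16 and Dll4. Dpt, Medag, Mfap5, Lum, Gsn, Fbn1 and Sned1 are fibroblast or mesothelial genes with more CPM in stromal cells than in members of each library, and for all of them but Medag the 5 richest HFD cells held 60.5 to 85.5% of the UMIs. Mfap5, for example, had 110 UMIs in 21 HFD cells and 13 in 5 LFD cells. Npr3, Sox18, Btnl9, Cyp4b1, Abca8b and Dll4 were spread over 78 to 354 HFD cells and stood below 5 CPM in stromal cells. Npr3, the clearance receptor of natriuretic peptides, had 38 UMIs in 34 LFD and 151 in 111 HFD cells, with a ratio of 6.24 (4.35 to 9.16). In cells with 1500 to 3000 UMIs the ratio of Npr3 was 1.73 (0.931 to 3.39), which holds 1, and in cells with 3000 to 6000 UMIs 12.5 (5.10 to 39.7). Cyp4b1, a fatty acid hydroxylase of the P450 family, had 81.9 CPM under LFD and 273 CPM under HFD, with a ratio of 3.34 (2.91 to 3.84), with 1.93, 3.45 and 2.69 in the 3 depth ranges. Abca8b, a lipid transporter of the ABC family, had a ratio of 4.50 (2.94 to 7.07), Glcci1, a glucocorticoid-induced gene, 4.03 (3.08 to 5.30), and Il16, a cytokine gene, 4.97 (2.88 to 8.98). In immune cells Glcci1 had 65.1 and 128 CPM against 21.1 and 84.8 CPM in members, and Il16 had 29.3 and 23.2 CPM against 4.86 and 24.2 CPM in members. Glcci1 was thus higher in immune cells in both libraries, and there too its level was higher in HFD. In cells with 1500 to 3000 UMIs the ratios of these were 2.28 (0.883 to 6.93) for Abca8b, 2.44 (1.38 to 4.54) for Glcci1 and 1.37 (0.292 to 8.45) for Il16.

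The 15 lowest in HFD were Cfd, Hist1h2ap, Pf4, S100a8, S100a9, Akr1b8, Birc5, Pclaf, Knstrn, Ccna2, Gm10076, Ch25h, Cenpw, Hist1h2ae and Rrm2. Hist1h2ap, Hist1h2ae, Birc5, Pclaf, Knstrn, Ccna2, Cenpw and Rrm2 serve DNA replication or mitosis. Cfd, the adipokine adipsin, had 292 UMIs in 90 LFD and 21 in 15 HFD cells and was at 0.427 and 0.0664 CPM in stromal cells. The 5 richest LFD cells held 33.6% of its UMIs. The summed adipocyte genes were also lower in HFD members, with 119 and 25.03 CPM. The free RNA estimate was made from sorted cells of the stromovascular fraction and does not cover adipocytes, and RNA from adipocytes was not tested as a source of Cfd. The neutrophil genes S100a8 and S100a9 and the platelet and macrophage gene Pf4 rested on few cells, 5 LFD cells holding 82.7%, 87.0% and 70.1% of their UMIs. Akr1b8, an aldo-keto reductase of the NRF2 response, was spread over 154 LFD and 42 HFD cells, with 114 CPM under LFD and 35.2 CPM under HFD, with a ratio of 0.307 (0.24 to 0.39), while stromal cells had 39.3 and 39.7 CPM. Ch25h, the cholesterol 25-hydroxylase, had a ratio of 0.246 (0.126 to 0.444). Gm10076, a predicted gene that may share reads with a near-identical copy, was at 0.404 (0.368 to 0.444) in members and was lower in HFD in stromal cells too, from 647 to 337 CPM.

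RNA of other cell types was measured in the members with lists of their markers. Their part in the results was not tested beyond the values given here. The 6 fibroblast genes summed to 493 CPM in LFD and 996 CPM in HFD, the 6 B and plasma cell genes to 418 and 3395 CPM, the 5 adipocyte genes to 119 and 25.03 CPM, the 4 neutrophil genes to 186 and 50.9 CPM, the 6 macrophage genes to 119 and 88.2 CPM, the 4 erythrocyte and platelet genes to 670.3 and 1162 CPM, the 6 mesothelial genes to 8.38 and 15.3 CPM, and the 6 T cell and innate lymphoid cell genes to 3.24 and 5.51 CPM, with Cd3e, Cd3g, Trac and Nkg7 at 0 in both. Although the fibroblast sum was higher in HFD, a fibroblast gene was detected in 563 LFD but only 393 HFD members. For Col3a1 the 5 richest HFD cells held 59.9% of the UMIs. Its ratio was 0.588 in cells with 1500 to 3000 UMIs, 0.66 in cells with 3000 to 6000 UMIs and 4.16 in cells with 6000 to 12000 UMIs. Igkc, an immunoglobulin light chain, was detected in 451 LFD and 530 HFD members, and 1 HFD cell held 2277 of 5342 UMIs. Hbb-bs, a haemoglobin chain, lay in 12 LFD and 5 HFD cells. The pericyte gene Rgs5, of which the rule allows 1 mural gene, had 26.5 CPM under LFD and 94.6 CPM under HFD, with a ratio of 3.57 (2.81 to 4.58). In members with no UMI of any mural or stromal rule gene, nor of Cd79a, Lyz2, Jchain or Cd3e, the ratio was 4.10 for Sox18, 4.85 for Dll4, 3.22 for Btnl9, 5.45 for Npr3, 2.24 for Cd36, 0.231 for Selp, 0.271 for Top2a, 0.237 for Akr1b8 and 0.174 for Cfd, while the fibroblast genes named above had too few UMIs there to compare. No adipocyte gene was among those used to leave cells out, so the value of Cfd there does not cover RNA of adipocytes.

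In the remaining lists few genes passed 2-fold. Of the 9 compared junction genes all were above 1, but the list holds rule markers, among them its highest gene, the tight junction claudin Cldn5 (chr16:18776847-18778262) at 1.98 (1.90 to 2.06), and its lowest, Esam, at 1.05 (0.989 to 1.11), so nothing is read from the count. Ocln had 0 UMIs. Of the basement membrane genes 10 of 12 were above 1, without any past 2-fold, from Col15a1, a collagen of the capillary basement membrane, at 0.845 (0.771 to 0.924) to fibronectin, Fn1, at 1.51 (1.34 to 1.70). Beside this, 5366 of all 8959 compared genes were above 1, 3.65% passed 2-fold higher and 2.10% passed 2-fold lower. Class I and interferon genes had 8 of 13 above 1, a share near that of all compared genes. Gbp2 was highest at 1.52 (1.30 to 1.77) and Isg15 lowest at 0.677 (0.583 to 0.784). Class II genes had few UMIs, with Cd74 at 55.4 CPM under LFD and 70.8 CPM under HFD against 5349 CPM in LFD immune cells. In the NRF2 and metallothionein list Mt2 passed 2-fold lower (0.398, 0.227 to 0.665), on 75 and 19 UMIs, and stromal Mt2 was also lower in HFD (327 and 139 CPM). In the insulin and IGF list, Igf1r was highest at 1.60 (1.30 to 1.97) and the insulin receptor Insr lowest at 0.759 (0.612 to 0.938). In the senescence and stress list, Gdf15, a stress-induced cytokine, passed 2-fold higher at 2.44 (1.81 to 3.31) and Trp53 was lowest at 0.858 (0.703 to 1.04). In the mesenchymal list, Tagln passed 2-fold higher at 2.29 (1.36 to 3.94) (but 1.93 without the 5% of cells with most UMIs), on 26 and 38 UMIs, and Acta2 was lowest at 0.73 (0.407 to 1.27).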

How the data were processed

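Cells of the stromovascular fraction were sorted for eYFP and libraries were made with the 10x Single Cell 3′ kit. The authors deposited a matrix of UMI counts for each diet with its gene and barcode names. The submitters' processing notes name bcl2fastq 2.17.1.14, Cell Ranger 4.0.0, STAR, Seurat 4.1.0 and the build mm10. Here barcodes with 500 to 40000 UMIs, at least 100 genes and under 12.5% mitochondrial UMIs were kept, members were taken by the marker rule, and their counts were summed per library and divided by the total of 3701588 (LFD) or 2357152 (HFD) UMIs. Levels carry exact Poisson intervals, shares exact Clopper-Pearson intervals and ratios exact conditional binomial intervals, all of 95%. With 1 library per diet, no count model was fitted and a gene past 2-fold is a difference between libraries. The ratio interval was checked on simulated counts. No doublet caller was run. Mixed droplets were limited by the rule's markers and by alternatives. The sort itself rests on the Cyp1a1 promoter, so Cyp1a1 values describe cells already selected through it.

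The members, the 35 gene lists and the named genes were chosen with earlier results of these data known. The gene rule named all genes of the AHR, capillary, arterial, venous and lipid lists, the extremes and 2-fold genes of other lists, the 15 highest and 15 lowest genes by diet (at least 20 cells, free RNA estimate under 1/3 of the level, without mitochondrial, immunoglobulin and sex-linked genes) and the 15 most specific genes. Other genes named were picked for their known role after their values were seen, as were the cycling and tip gates and the depth, cell cycle and Igkc or Hbb-bs alternatives. Some genes that the rule names are not reported here. Alternatives covered scaling, minimum counts, marker limits, mitochondrial limit, depth and free RNA. Positions are from RefSeq (GRCm38.p6, which mm10 corresponds to) and Python 3.11.15, numpy 2.4.6, scipy 1.17.1 and pandas 2.3.3 were used.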

Additional observations from a re-analysis of the deposited data

How the results depend on the processing

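Of 985 values recomputed under an alternative, 789 stayed within the bounds set (the counting interval of a ratio or share, 1.5 times for a count, 1.5 times and the spread of its genes for a list median), and of 745 ratios of the genes the results turn on 730 stayed on their side of 1. The 15 others were 4 of Cyp1a1, at 0.992 with median-of-ratios scaling, 0.934 as a mean of per-cell CPM, 0.793 in cells with 1500 to 3000 UMIs and 0.960 in cells with at most 1 cell cycle gene, 7 of Cyp1b1 (1.05 in all members, 0.616 to 0.946 in those), and 1 each of Lpl (0.810, cells with 1500 to 3000 UMIs), Tiparp (1.03, the same cells), Gsn (0.919, cells with 3000 to 6000 UMIs) and Nqo1 (1.25, the same cells). The number of genes at least 2-fold higher in HFD (327) became 191 with median-of-ratios scaling, 593, 119 and 1417 with a minimum of 20, 200 and no UMIs, 77 and 173 in cells with 1500 to 3000 and 3000 to 6000 UMIs, and 181 in cells with at most 1 cell cycle gene. The number at least 2-fold lower (188) became 291, 312, 51, 620, 35, 59 and 83 in the same order, and 289 as a mean of per-cell CPM; fewer genes reach the minimum in fewer cells. The median log2 ratio of all genes (0.12) became -0.029 with median-of-ratios scaling. List medians (log2) became, in cells with 1500 to 3000 UMIs, 0.10 for capillary, 0.23 for lipid handling and 0.19 for immediate early genes, and in cells with at most 1 cell cycle gene 0.42 for capillary genes. The venous median became -1.06 in cells with 3000 to 6000 UMIs and the arterial median 1.65 in the stricter members, which had no UMI of the mural and stromal rule genes, Cd79a, Lyz2, Jchain or Cd3e. The tip cell median became -0.052 without the 5% of cells with most UMIs, the cell cycle median -1.58 in the stricter members, and the AHR pathway median -0.047 with median-of-ratios scaling, -0.0071 as a mean of per-cell CPM and -0.0096 in the stricter members. Among all list genes and named genes compared, these lost the 2-fold call under the alternatives planned: with median-of-ratios scaling Cd36 (1.94), Ednrb (1.94), Egr1 (1.86), Btg2 (1.87) and Iglc2 (1.99), as a mean of per-cell CPM Timp4 (1.69), Cd36 (1.87), Smad6 (1.92), Ednrb (1.97), Egr1 (1.62), Egr2 (1.37), Btg2 (1.86), Tagln (1.61), Serpinf1 (0.991), Iglc2 (1.51) and Gsn (1.68), with 3 or more markers Cd79a (1.11), in the stricter members Pgf (1.75), Ccl2 (0.820), Cxcl10 (0.565) and Tyms (0.502), and without the 5% of cells with most UMIs Ackr1 (0.743), Selp (0.532), Tagln (1.93) and Iglc2 (1.67). The causes were not tested.

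The share of cells that were endothelial became 2.25% (LFD) and 2.17% (HFD) when members were the stricter ones and 11.4% and 9.55% with a mitochondrial limit of 5%. The HFD free RNA estimate became 9.06% from stromal genes. Arterial shares were 44.9% and 56.7% without thinning, 42.6% and 55.9% with 1 or more genes and 2.59% and 6.46% with 3 or more. Venous shares were 22.3% and 11.1%, 29.8% and 15.5%, and 2.27% and 1.11%. Lymphatic shares were 5.83% and 5.90% with 1 or more genes and 0 in HFD with 3 or more. With 1 gene enough for a gate, Cyp1a1 had 596 and 698 CPM in arterial-only cells, 548 CPM in LFD cells with both and in cells with neither 963 CPM (LFD) and 753 CPM (HFD), where the order of the diets turned (724 and 745 CPM with 2 genes). List medians with under 5 genes left were not computed. No paired analysis was possible because each diet had 1 library, which also left no replicate to leave out.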

Other observations

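Saa3, an acute-phase serum amyloid gene, was listed at 446 CPM (424 to 468) in LFD members and 99.7 CPM (87.4 to 113) in HFD members, with UMIs in 542 of 646 and 156 of 568 cells; it was picked after its values were seen. Stromal cells had 13472 CPM (LFD) and 3499 CPM (HFD), and the free RNA estimate in members was 300.3 and 116 CPM. The HFD level in members was thus below its free RNA estimate, and the ratio of 0.224 in members stood beside a lower HFD level in the stromal cells too.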
